A study of Mus musculus with 8 samples.

Results

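The regions described here carried a listed H3K4me3 peak in mouse germline stem cells grown for about 60 months (60M) and none in cells grown for about 5 months (5M). Overlapping peaks of the 4 H3K4me3 lists were merged, and a region was kept when both 60M lists and neither 5M list had a peak in it. This left 2437 of 54585 merged regions, or 4.46%. The reverse rule held for 5509 regions (10.1%), called 5M-only below, and 35229 regions were listed in all 4 libraries, called shared below. The 5M lists were the longer ones. With all lists shortened to 41637 peaks, the rule held for 3518 regions and the reverse rule for 3950. With only the peaks at the highest −log10 p against the control, it held for 2255 and the reverse for 2266. Leaving out 60M library 2 left 4824 regions that met the rule, and leaving out any other library 2823 to 3609. The regions were chosen by whether a peak was listed, which rests on the H3K4me3 signal, so their H3K4me3 values are given as a description and without a test.

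The cells were cultured spermatogonial stem cells derived from testes of wild type Green mice, which carry the act-EGFP transgene Tg14(act-EGFP)OsbY01, on a DBA/2 background. Both ages had the same strain, the growth factors FGF2 and GDNF, and 1% fetal bovine serum in the culture, and they differed in the labels only by time in culture. Chromatin immunoprecipitation sequencing was done with antibodies against H3K4me3 or H3K27me3, with 2 libraries for each mark and age, 8 in all. Whether the 2 libraries of a group are separate cultures is not stated, and p-values measure only the spread between these libraries, which may be technical. The labelled cell type could not be checked against marker genes, because no annotation of the genome build that the positions follow (mm9) was used.

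H3K4me3, the trimethylation of lysine 4 of histone H3, is written by the SET1 and MLL complexes and marks the promoters of active and poised genes, most strongly those in CpG islands. H3K27me3 is written by Polycomb repressive complex 2 and marks silenced genes. Promoters that carry both marks are called bivalent and are common at developmental genes in stem cells and in the germ line.

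The H3K4me3 lists held 43699 and 41637 peaks at 60M, against 45933 and 47415 at 5M, and the H3K27me3 lists held 14940 and 13037 peaks at 60M, against 12002 and 14632 at 5M. The lists give no read totals, so depth is unknown and a region without a listed peak may still carry the mark. Positions are printed as the lists give them, in bins of 1 kb, and no gene is assigned to them.

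The 60M-only regions were short and weak beside the shared regions. A single 1 kb bin made up 1416 of them (58.1%), 939 (38.5%) spanned 2 kb, 73 spanned 3 kb, 8 spanned 4 kb and 1 spanned 5 kb. The mean covered length was 1.36 kb in 60M library 1 and 1.33 kb in library 2. Regions of all 4 libraries covered 2.47 and 2.48 kb in these same libraries. The 5M-only regions were short too, with means of 1.33 and 1.45 kb in 5M libraries 1 and 2. The deposited maximum signal of the 60M-only peaks had a lowest, median and highest value of 9.30, 70.2 and 436 in 60M library 1 and of 9.20, 65.3 and 446 in 60M library 2. The medians for regions of all 4 libraries were 281 and 287. These signals are the authors' value for each peak, the sources used here do not give their scaling, and they are compared only within a list.

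Ranked by that signal within its own list, the middle 60M-only region stood at the 14.9th percentile in 60M library 1 and at the 11.5th in library 2. The lower and upper quartiles were 7.72 and 25 in library 1 and 5.62 and 20 in library 2. The −log10 p against the control, which the authors' lists cap at 15.95, reached the cap in 630 regions (25.9%) in library 1 and in 524 (21.5%) in library 2. Over the whole lists 75.6% and 78.5% of peaks reached it. The cap was reached in both libraries by 367 of the 60M-only regions (15.1%), in 1 library by 420 and in neither by 1650 (67.7%). The 5M-only regions also ranked low in their own lists, with median percentiles of 18.4 and 25.6 in 5M libraries 1 and 2. Of these 5M-only regions, 28.3 and 39.4% reached the cap.

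**Figure D1:**
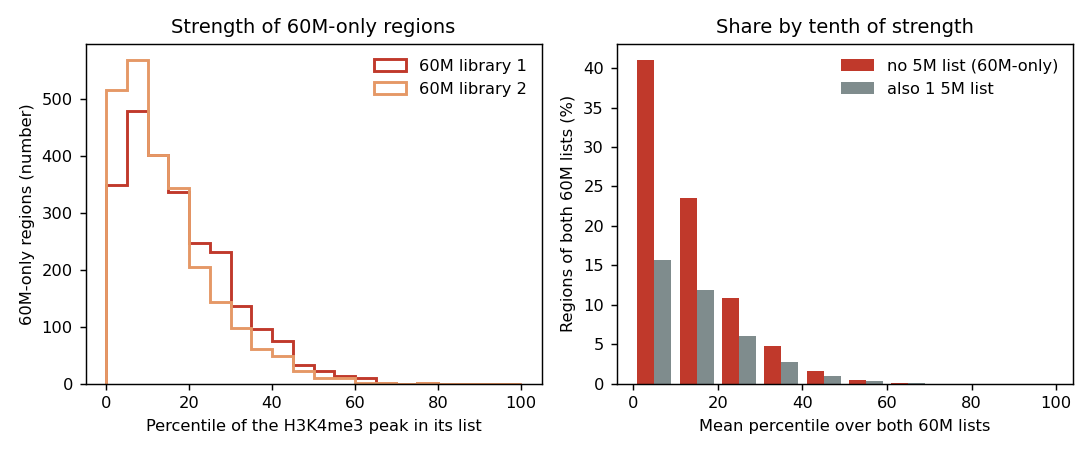
Left, number of 60M-only H3K4me3 regions by the percentile of their peak within each 60M list (bins of 5 percentiles). Right, of the regions listed in both 60M libraries, the percent listed in no 5M library (red) and in 1 5M library (grey), in steps of 10 of the mean percentile. The red bars are tallest at the weak end, with 41.0% in the lowest step.

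Of all 38836 regions listed in both 60M libraries, 6.28% had no 5M peak, and this share was higher among weaker regions. It was 41.0% below the 10th mean percentile (897 of 2190 regions), 23.6% between the 10th and 20th (828 of 3504) and 10.9% between the 20th and 30th (427 of 3926). Between the 40th and the 50th percentile it was 1.62%, and between the 50th and 60th 0.482%. Only 4 of the 60M-only regions ranked above the 60th percentile, 3 of them between the 60th and 70th, and none of the 4278 regions between the 80th and 90th and the 4210 above was 60M-only. The regions just outside the rule, listed in both 60M libraries and in 1 5M library, numbered 1170. The median percentiles at 60M were 14.9 and 11.5 for the regions inside the rule, against 16.7 and 13.9 for those just outside. The single 5M peak that kept them out was weak too, with a median percentile of 7.05 in 5M library 1 (789 regions) and of 5.17 in 5M library 2 (381 regions).

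The 2 60M lists were compared by the borders and the signals that they gave these regions. Both lists gave identical borders for 1932 regions (79.3%) and the same summit bin for 2233 (91.6%), and in every region the 2 peaks shared at least 1 bin. Across the 2437 regions the Spearman correlation of the signals was 0.693, against 0.967 over the 35229 regions of all 4 libraries. The 60M-only regions span a narrower range of signal, and both values come from the same 2 libraries, so they are given as a description. The absolute difference in percentile between the lists had a median of 4.37.

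The strongest region, chr2:166350000-166352999, spanned 3 kb and had signals of 436 and 446 in the 60M libraries, at percentiles of 75.5 and 77.6. It lay 11 kb from the nearest region of all 4 libraries. Its mean percentile was 76.6, against 67.2 for the next. That one, chr11:96173000-96173999, was a single bin with signals of 323 and 382, with a shared region 2 kb away. Its −log10 p of the immunoprecipitate alone was 18.94 and 37.59, against 338.34 and 343.52 at the first, and both had reached the cap against the control. The 3 that followed, chr5:123946000-123948999, chr10:44166000-44168999 and chr4:128664000-128667999, had mean percentiles of 63.0, 61.6 and 59.4. All 3 lay within 6 kb of a shared region.

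The next 4 in rank held both near and remote regions. At chr15:59491000-59493999 the signals were 325 and 262, with the nearest shared region 8 kb away. Another region of this chromosome, chr15:27866000-27868999, reached 299 and 275 and lay 64 kb from a shared region. For chr14:55202000-55203999 the signals were 262 and 277 at a gap of 4 kb. At chr13:98893000-98895999 the peak covered 2 kb in library 1 and 3 kb in library 2, with signals of 245 and 289, and the nearest shared region lay 79 kb off. These 4 thus included the 2 most remote of the 12 strongest regions.

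The last 3 of the 12 strongest were chr4:134538000-134540999 (signals 250 and 280), chr17:35686000-35687999 (252 and 273) and chr9:107424000-107424999 (251 and 270). A 5M-only region lay 3 kb from the region on chromosome 17 and 4 kb from the one on chromosome 5, and further than 5 kb from the other 10. All 12 reached the cap against the control in both 60M libraries, and none overlapped an H3K27me3 peak in any library. The widest by the smaller covered length repeated 5 of these 12 and added chr10:82816000-82819999, which covered 4 kb in both libraries at percentiles of 46.9 and 45.4.

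The 4 regions nearest the middle of the set, by mean percentile, were 1 or 2 bins long. At chr18:35704000-35704999 the signals were 69.5 and 68.1, the −log10 p against the control 7.17 and 6.66, and the nearest shared region 7 kb away. At chr1:112480000-112480999 the signals were 74.1 and 63.2 and the gap was 83 kb. Both were single bins below the cap. At chr10:126290000-126291999 the libraries disagreed more, with signals of 50.2 over 1 kb and 94.4 over 2 kb. At chr3:65725000-65726999 they were 74.1 over 1 kb and 63.2 over 2 kb.

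**Figure D2:**
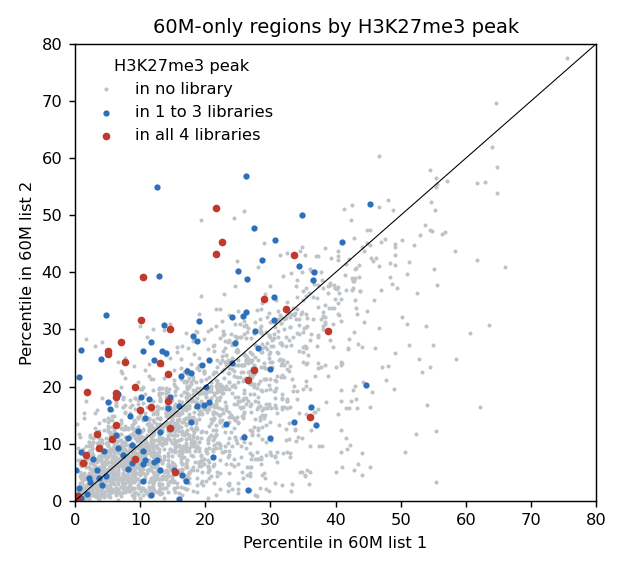
Percentile of each 60M-only region in 60M list 1 (horizontal) and 60M list 2 (vertical), with the line of equality. Regions with an H3K27me3 peak in all 4 H3K27me3 libraries (red) lie above the line in 29 of 36 cases, those with none (grey) in 784 of 2299.

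The median gap between a 60M-only region and the nearest shared region was 13 kb. The gap was at most 1 kb for 133 regions (5.46%), at most 5 kb for 628 (25.8%, exact binomial 95% interval 24.0 to 27.6%) and at most 50 kb for 1985 (81.5%). For 5M-only regions the median gap was 18 kb and the share within 5 kb 17.8% (16.8 to 18.9%), and for regions of a single library 19 kb and 18.8% (17.9 to 19.8%). Shared regions themselves had a shared neighbour within 5 kb in 23.7% of cases, at a median gap of 14 kb. Intervals cover counting error over regions only, and neighbouring regions are not independent. Since the merging rule fixes which peaks become separate regions, these shares carry no test.

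**Figure D3:**
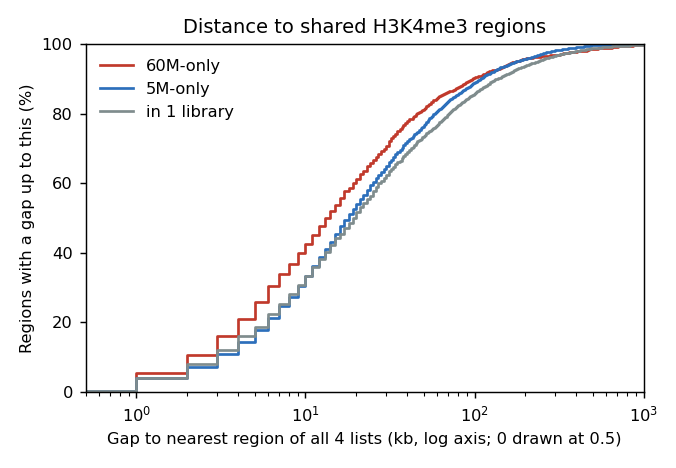
Cumulative percent of regions (vertical) by the gap to the nearest region listed in all 4 H3K4me3 libraries (horizontal, log scale in kb). The curve of the 60M-only regions runs above the 5M-only and single-library curves from 1 kb up to about 100 kb, with 42.5% against 33.4% and 33.2% within 10 kb.

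Near and remote regions differed in their peak columns. The 628 regions within 5 kb of a shared region had median signals of 78.0 and 78.1 in the 60M libraries. The 452 regions more than 50 kb away (18.5%) had 54.8 and 51.8. The −log10 p of the immunoprecipitate alone ran the other way, with medians of 14.7 and 13.9 in the near regions and 44.9 and 39.1 in the remote ones. Against the control, the medians were 11.3 and 10.3 near and 7.12 and 6.43 far. The near regions thus had the higher signal and the remote ones the higher p column of the immunoprecipitate alone, in both libraries.

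Of the 4 most isolated regions, 3 were on the X chromosome. That chromosome had the fewest H3K4me3 regions, 1510, and only chromosomes 1 and 2 are longer. Wide gaps there need not be a trait of the 60M-only regions. The nearest other H3K4me3 region of any kind lay 721 kb from chrX:115691000-115691999, 636 kb from chrX:14899000-14900999 and 602 kb from chrX:111587000-111588999. Their signals were 37.8 and 32.6, 91.9 and 85.9, and 108 and 96.5 in 60M libraries 1 and 2. The fourth, chr7:14700000-14700999, was 506 kb from any other region and had signals of 61.8 and 70.3. None of the 4 overlapped H3K27me3.

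Shared regions beside 60M-only regions were about as wide as shared regions in general. The 625 of them that were the nearest shared neighbour within 5 kb covered a mean of 2.43 and 2.48 kb at 60M, against means of 2.37 and 2.42 kb at 5M. Over all 35229 shared regions the means at 60M were 2.47 and 2.48 kb, against means of 2.35 and 2.41 kb at 5M. Of the 625 neighbours, 46 (7.36%) were wider in both 60M libraries than in both 5M libraries, where 7.43% of all shared regions were, and 24 (3.84%) were narrower in both, where 2.49% were. Of the 257 neighbours within 2 kb, 15 were wider and 15 narrower (5.84% each). Beside 5M-only regions, 106 of 971 such neighbours (10.9%) were wider in both 60M libraries. These widths come from the same lists as the rule and are given without a test.

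Regions of opposite age also met. A 5M-only region bordered 21 of the 60M-only regions with no gap, and lay within 5 kb of 142 (5.83%). This share was 3.85% with peaks merged within 1 kb, 3.92% with lists of equal length, 2.66% with peaks at the p ceiling alone, and 6.09 to 7.52% with 1 H3K4me3 library left out. With all peaks, 3.03% of shared regions had a 5M-only region within 5 kb, and 2.87% of 5M-only regions had another one. Another 60M-only region lay within 5 kb of 3.65% of the 60M-only regions. These shares are given without a test. When peaks within 1 kb of each other were merged, 2236 regions met the rule and 2227 of the 2437 were still covered by one. The others then shared a region with a 5M peak.

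The 60M-only regions were scattered over all 20 chromosomes that the lists cover. They made up 3.90% of the H3K4me3 regions on chromosome 19 (62 of 1589), the lowest share, and 5.67% on chromosome 18 (107 of 1886), the highest. Chromosome 1 followed with 5.12% (182 of 3558), and the X chromosome had 3.97% (60 of 1510). The share on chromosome 18 was 1.27 times the 4.46% of all chromosomes. The ratio was 1.04 with peaks at the p ceiling alone and 1.11 without 60M library 2, and 13 of the 107 regions lay in 1 window of 1 Mb, described below. Regions on a chromosome are not independent, so the shares are given without a test. Along the chromosomes, the last 10% of the length held 17.2% of 60M-only regions (420), 13.8% of 5M-only regions and 14.7% of all regions.

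**Figure D4:**
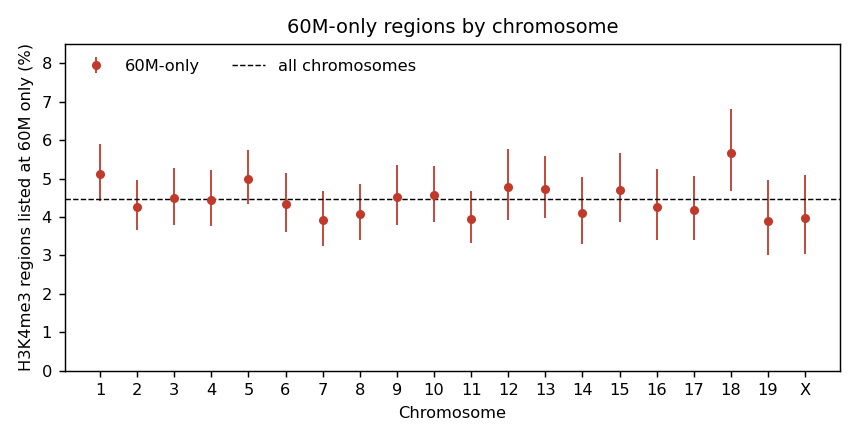
Percent of the H3K4me3 regions of each chromosome that were listed at 60M only (points, with exact binomial 95% intervals that cover counting error only) and the percent over all chromosomes (dashed line, 4.46%). Chromosome 18 has the highest share, 5.67%.

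Most lay alone. The nearest other 60M-only region was a median of 212 kb away, and 2142 of the 2437 had a different kind of region on both sides. Runs with no other kind between them comprised 131 pairs and 11 runs of 3. Of the runs of 3, chr12:104646000-104657999 was the shortest, at 12 kb, and chr5:114384000-114396999 followed at 13 kb. By windows of 1 Mb, 1214 windows with an H3K4me3 region held none, 702 held 1, and 2 windows held 10 or more.

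The fullest window, chr18:37000000-37999999, held 13 of the 60M-only regions among 49 H3K4me3 regions (26.5%), with 19 shared and 0 5M-only regions beside them. The window held 5 such regions with peaks at the p ceiling alone and 23 without 60M library 1. The 13 spread over 898 kb. Their signals had a lowest, median and highest value of 40.9, 58.7 and 92.6 in 60M library 1 and of 66.0, 91.5 and 201 in 60M library 2. An H3K27me3 peak overlapped 8 and 8 of the 13 in the 60M libraries, and 9 and 10 in the 5M libraries. The 8 were the same regions throughout, with H3K27me3 in all 4 libraries. This window was picked out after its values were seen. At chr18:37098000-37099999, chr18:37105000-37107999 and chr18:37113000-37114999, 3 such regions followed each other with no other kind between them. The strongest of the 8 was chr18:37907000-37909999, with H3K4me3 signals of 90.3 and 201.

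The second window, chr5:114000000-114999999, had 10 among 73 regions (13.7%) and differed in the other mark. None of its 10 regions overlapped H3K27me3 in either 60M library, and 1 and 2 did in the 5M libraries. Their H3K4me3 signals ran between 56.4 and 124 in 60M library 1 and between 54.6 and 121 in 60M library 2.

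H3K27me3 was not used to choose the regions. An H3K27me3 peak overlapped 65 (2.67%) and 57 (2.34%) of the 2437 regions in the 60M libraries, against 86 (3.53%) and 119 (4.88%) in the 5M libraries. Both 60M libraries lay below both 5M libraries. The means were 2.50 ± 0.232% at 60M and 4.21 ± 0.958% at 5M (SD, n = 2 each), a difference of -1.70 percentage points. An exact two-sided permutation test over libraries gave p = 0.333, the smallest that 2 against 2 allow, so no call could be made. Over all 54585 H3K4me3 regions the shares were 6.48 and 6.20% at 60M and 7.27 and 9.82% at 5M, with a difference of -2.20 points in the same direction (exact permutation p = 0.333). The difference thus had the same sign over all regions.

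Overlap was rarer in the 60M-only regions than in all regions in each of the 4 libraries. The share in 60M-only regions was 0.411 and 0.377 times that in all regions in the 60M libraries and 0.485 and 0.497 times in the 5M libraries. A short region has fewer bases to overlap, so regions of at most 2 kb were also set side by side. Among 60M-only regions of at most 2 kb the shares were 2.12 and 2.00% at 60M and 3.06 and 4.46% at 5M, and among shared regions of at most 2 kb 5.73 and 6.03% at 60M and 6.17 and 8.62% at 5M. Under this limit the 60M-only regions were again the lower in each of the 4 libraries. The limit does not make the widths equal. Before it, 66.1 and 69.0% of 60M-only regions covered 1 bin in the 60M libraries, against 16.1 and 15.0% of shared regions. The part of width in the lower overlap was not tested.

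Within 5 kb the picture by age differed between the 60M-only and the 5M-only regions. An H3K27me3 peak lay on or within 5 kb of 13.8 and 11.9% of the 60M-only regions in the 60M libraries, against 11.5 and 14.4% in the 5M libraries, and the ages overlapped (exact permutation p = 1.00). For 5M-only regions the shares were 7.55 and 6.79% at 60M and 13.3 and 17.6% at 5M. The ratio of the 60M-only share to the 5M-only share was 1.83 and 1.75 in the 60M libraries and 0.867 and 0.819 in the 5M libraries. The mean ratios, 1.79 ± 0.0597 at 60M and 0.843 ± 0.0339 at 5M (SD, n = 2 each), did not overlap between ages. The p was 0.333 by exact permutation over libraries (two-sided), again the smallest possible. With H3K27me3 peaks at the p ceiling alone the difference of the ratios was 7.04, against 0.946 with all peaks, and the ages overlapped (exact permutation p = 0.667). With all peaks, H3K27me3 lay within 5 kb of a larger share of the 60M-only than of the 5M-only regions in both 60M libraries. In both 5M libraries the order was reversed. The 60M minus 5M difference was -0.144 points for the 60M-only regions, -8.30 for the 5M-only regions and -0.731 for all regions. Thus mainly the 5M-only share differed by age. The 60M-only share was 0.768 and 0.756 times that of all regions at 60M and 0.727 and 0.748 times at 5M. For direct overlap the ratio of the 60M-only to the 5M-only share was below 1 in all 4 libraries. It was 0.936 and 0.865 at 60M and 0.661 and 0.571 at 5M (exact permutation p = 0.333 for the difference between ages).

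**Figure D5:**
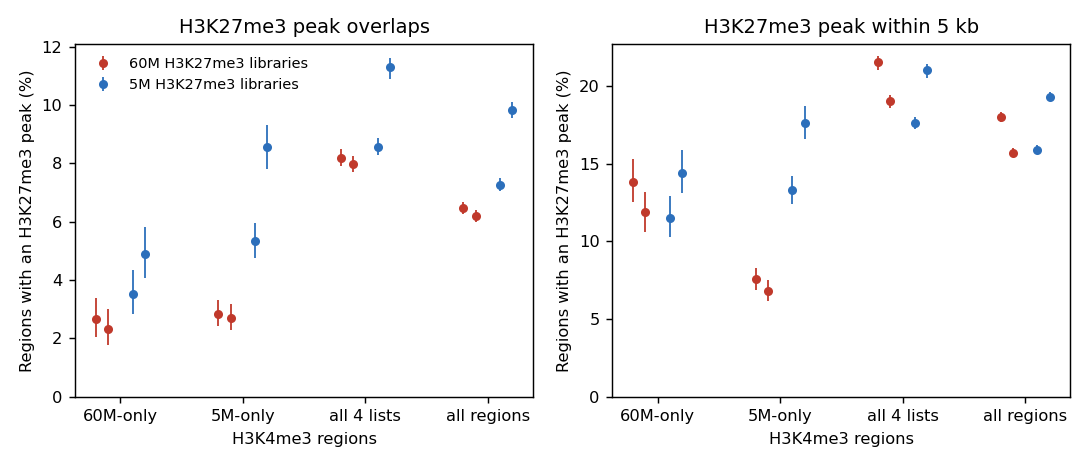
Percent of H3K4me3 regions overlapped by an H3K27me3 peak (left) or with one within 5 kb (right), for each of the 2 60M (red) and 2 5M (blue) H3K27me3 libraries, with exact binomial 95% intervals. In 60M-only regions the libraries run between 2.34 and 4.88% on the left and overlap between the ages on the right.

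Of the 2437 regions, 2299 (94.3%) met no H3K27me3 peak in any library and 138 (5.66%) met at least 1, against 87.8% and 12.2% of all 54585 regions. Of these 138, 36 had one in all 4 libraries (1.48% of the 2437, against 3.61% of all regions), 27 in both 5M and neither 60M library, and 1 in both 60M and neither 5M library. H3K27me3 at 5M only was thus seen in 1.11% of the 60M-only regions, against 1.48% of all H3K4me3 regions. For H3K27me3 at 60M only the shares were 0.0410%, against 0.302%. Leaving out 1 H3K27me3 library moved the number at 5M only to between 29 and 54 (54 without 5M library 1) and the number at 60M only to between 1 and 10 (10 without 60M library 2). The shares over all regions were not computed with a library left out. These numbers therefore show only how far the counts move. A peak in a single library was met by 44 of the 2437 regions, against 2145 of all 54585. H3K27me3 peaks on 60M-only regions were wide, with mean lengths in kb of 4.53 and 3.97 at 60M, against 4.71 and 5.07 at 5M. All peaks of these lists averaged 1.97 and 1.95 at 60M, against 2.15 and 2.38 at 5M. Wider peaks meet more regions by their length alone.

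Overlap also varied with position. Of the 628 regions within 5 kb of a shared region, 5.25 and 3.66% had H3K27me3 in the 60M libraries, against 5.89 and 7.64% in the 5M libraries. Of the 1357 regions at over 5 to 50 kb, 1.40 and 1.69% had it at 60M, against 2.14 and 2.73% at 5M. Of the 452 beyond 50 kb, 2.88 and 2.43% had it at 60M, against 4.42 and 7.52% at 5M. The middle class was the lowest in each of the 4 libraries.

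The 36 regions with H3K27me3 in all 4 libraries were listed with both marks at 60M and with H3K27me3 alone at 5M. Lists from many cells do not show whether both marks sat on the same chromosomes. They lay on 17 chromosomes, 17 of them within 5 kb of a shared H3K4me3 region, and 8 of them in the chromosome 18 window. At chr8:86568000-86568999 the H3K4me3 signals were 134 and 199, beside H3K27me3 peaks with maxima of 60.5 and 53.2 at 60M and 52.0 and 86.4 at 5M. At chr3:123143000-123145999 the H3K4me3 signals were 90.3 and 247, and the overlapping H3K27me3 peaks had lengths in kb of 8 and 6 at 60M and of 9 and 13 at 5M. At chr1:146800000-146801999 they were 116 and 160, with the nearest shared H3K4me3 region 922 kb away.

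The 27 regions with H3K27me3 at 5M only were listed with H3K4me3 alone at 60M and with H3K27me3 alone at 5M. A pair lay 4 kb apart on chromosome 6, at chr6:52113000-52115999 and chr6:52120000-52120999. The first had H3K4me3 signals of 106 and 282 in the 60M libraries and H3K27me3 maxima of 91.2 and 173 in the 5M libraries. The second had 110 and 226 for H3K4me3 at 60M and 119 and 131 for H3K27me3 at 5M. At chr2:38192000-38192999 the H3K4me3 signals at 60M were 140 and 238, and H3K27me3 peaks of 4 and 17 kb overlapped it at 5M. At chr7:28107000-28107999 they were 123 and 215, with H3K27me3 peaks of 12 and 11 kb at 5M. The only region with H3K27me3 at 60M only was chr5:101972000-101973999, where the H3K4me3 signals were 87.2 and 113 and the H3K27me3 maxima 70.4 and 57.9.

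The other named regions with H3K27me3 had it in other combinations of libraries. In 5M library 2 alone a peak of 4 kb overlapped chr11:118906000-118906999 and one of 2 kb overlapped chr6:123238000-123239999. At chr1:42760000-42761999, H3K27me3 was listed in 60M library 1 (48.9) and not in 60M library 2, against 89.2 and 114 in the 5M libraries.

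The 2 60M H3K4me3 libraries ordered these regions differently by H3K27me3. Within 60M list 1 the 36 regions with H3K27me3 in all 4 libraries had a lower median signal than the 2299 without, 58.3 against 70.2. Within list 2 they had a higher one, 96.5 against 63.9. In percentiles the medians were 10.3 against 14.9 in list 1 and 20.5 against 11.0 in list 2. Among shared H3K4me3 regions the contrast was of the same kind, with medians of 276 for the 1709 with H3K27me3 in all 4 libraries and 285 for those without in list 1, and of 320 and 286 in list 2. The rule needs a peak in both 60M lists, so each of these regions was nevertheless listed in library 1. The labels mention sonication with or without micrococcal nuclease and do not say which library had which. The part of this library difference in the H3K27me3 results was not tested.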

How the data were processed

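One peak list per library was used, as deposited by the authors. CASAVA 1.8.4 and Bowtie 1.1.2 are named in the submitters' processing notes, with the build mm10. No source used here gives the peak caller. The positions run past 9 of the 20 mm10 chromosomes (1331 peaks) and fit the mm9 lengths of GenomeInfoDb 1.38.1 (R 4.3.3), except for 2 peaks whose bin overhangs by up to 688 bp. The only annotation and sequences at hand are for GRCm38.p6, and positions were not converted, so gene names, cell type markers and sequences were not used here.

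Per the file headers, each peak has borders, a maximum immunoprecipitation signal, 2 columns of −log10 p-values and a q-value. The lowest −log10 p against the control that the authors deposited was 3.01 and the highest q-value 0.00097. Depth is unknown.

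Peaks sharing at least 1 bp were merged with Python 3.11.15, numpy 2.4.6, pandas 2.3.3 and scipy 1.17.1. Figures used matplotlib 3.10.9. The signal was turned into percentiles within each list. The region with several peaks in a list took its strongest. The region calls were tested on simulated data. Ages were compared over libraries with exact permutation tests (6 arrangements of 2 against 2). Named regions, 27 different ones, were the 12 strongest, the 6 widest, the 6 strongest with H3K27me3 in any library, the 4 most isolated and the 4 nearest the middle. The regions of the H3K27me3 patterns, the runs and the 2 fullest windows were named after their values were seen. The members and lists were chosen with earlier results of these data known.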

Additional observations from a re-analysis of the deposited data

How the results depend on the processing

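The number of 60M-only regions, 2437, was 2236 with peaks merged within 1 kb, 3518 with all lists shortened to 41637 peaks, 2255 with peaks at the p ceiling alone, and 2823 to 4824 with 1 H3K4me3 library left out (4824 without 60M library 2, when library 1 decides alone). Of the 2437, 2102 and 367 were still covered by such a region in the shortened and the ceiling lists. The number of 5M-only regions, 5509, was 5177 with merging within 1 kb, 3950 with shortened lists and 2266 at the ceiling. The share within 5 kb of a stable region, 25.8%, was 22.0% with merging within 1 kb, 21.5% with shortened lists, 21.6% at the ceiling and 22.9 to 26.6% with a library left out. It was 10.5% within 2 kb and 42.5% within 10 kb. The mean covered length, 1.35 kb, was 1.43 kb with shortened lists, 1.86 kb at the ceiling and 1.27 to 1.37 kb with a library left out. The mean of the 2 median percentiles, 13.2, was 9.58 to 14.1 with a library left out. The share on chromosome 18 over that on all chromosomes, 1.27, was 1.04 at the ceiling and 1.11 to 1.34 with a library left out. The chromosome 18 window held 5 regions at the ceiling and 14 to 23 with a library left out (23 without 60M library 1), against 13. Regions with H3K27me3 at 1 age only numbered 28, against 66 within 5 kb, 9 at the H3K27me3 ceiling and 33 to 55 with an H3K27me3 library left out (45 without 60M library 1, 46 without 60M library 2, 55 without 5M library 1). Their split into 60M only and 5M only was 1 and 27, then 25 and 41 within 5 kb, and 0 and 9 at the ceiling. Dropping 60M library 1 gave 7 and 38, dropping 60M library 2 gave 10 and 36, dropping 5M library 1 gave 1 and 54, and dropping 5M library 2 gave 4 and 29. The matching shares over all H3K4me3 regions were not computed for these settings, so the counts are not read as a trait of the 60M-only regions. The age difference in direct H3K27me3 overlap stayed negative in all alternatives run, from -2.38 to -0.841 points. For a peak within 5 kb it was -0.144 points, and the ages overlapped. Fewer libraries or peaks change these values by construction, and other causes were not tested. The settings for chromosome 18, its window, the gap to 5M-only regions, the named regions and the ratio to 5M-only regions were added after the data were seen. That ratio difference, 0.946, ran from 0.904 to 7.04, the last at the ceiling (exact permutation p = 0.667). With ages permuted within replicate number (replicate block), the H3K27me3 difference of -1.70 points had p = 0.5, the smallest that exact test allows. The H3K27me3 overlap of same-numbered libraries did not deviate together (correlation -0.00338 over 54585 regions). Pairing of the H3K4me3 libraries by number was not measured. Among shared regions, library 2 gave the higher H3K4me3 percentile to 78.4% of those with H3K27me3 in all 4 libraries at 60M and to 76.3% at 5M, against 32.0% at 60M and 58.1% at 5M of those with none.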
